A study of Rattus norvegicus with 12 samples.

Results

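The clustered protocadherins are cell adhesion proteins of the cadherin superfamily, encoded by gene clusters named alpha, beta and gamma. All features whose symbol begins with Pcdha, Pcdhb, Pcdhga, Pcdhgb or Pcdhgc followed by a number (or by c and a number) were taken from the deposited tables. This gave 36 of 22850 features, with 2 alpha genes, 19 beta genes and 15 gamma genes. The family drew attention because Pcdhga3 lay near the top of the changes with MOTS-c, so the values of that comparison are given as a description without a p-value.

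RNA was sequenced from primary atrial fibroblasts of Sprague-Dawley rats aged 1 to 3 days, which were separated by differential adhesion and were not sorted. The AngII group received angiotensin II, a pressor hormone that activates fibroblasts, at 1 μmol/L for 48 h. The AngII+HNG group was pretreated for 1 h with 10 μmol/L HNG, an analogue of the mitochondrial-derived peptide humanin, before co-treatment with the same AngII. The AngII+MOTS-c group was pretreated for 1 h with 5 μmol/L MOTS-c, another mitochondrial-derived peptide, before co-treatment with the same AngII. Each group had 4 libraries, and all 12 libraries came from cells exposed to AngII, so a comparison with unexposed cells was not analysed here. The study calls the libraries biological replicates and independent samples but does not say whether they came from separate isolations, so the p-values measure the spread between these libraries. Replicates 2 and 3 of a treatment carry one number in their library names, and if they were repeats of one culture, n would be 3 rather than 4. With these libraries summed, edgeR called 577 features in place of 869 for AngII+HNG against AngII, and 0 clustered protocadherins in either case.

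In the alpha and gamma clusters, each gene begins with its own large exon, read from its own promoter, which is joined to exons shared by the cluster. Genes of the beta cluster lack such shared exons and are encoded by a single large exon. The proteins bind identical partners on neighbouring cells, and each neuron expresses a combination of them that lets it tell its own branches from those of other cells. The promoters commonly carry a conserved element with the core CGCT, near which the insulator protein CTCF binds, and methylation of the promoters silences them. The C-type genes, such as Pcdhac1, Pcdhgc3 and Pcdhgc5, are expressed under rules that differ from those of the other members.

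Promoter sequences were available for 32 of the 36 genes, as windows of 250 bases before and 50 bases after the RefSeq gene start (rat build GRCr8). They are shown because promoter choice sets which members a cell expresses. A relation of these sequences to the spread between libraries, described further on, was not tested. The 8 letters GTGGCGCT, which include the core and were chosen after the sequences were seen, occurred on either strand in 14 of 17 beta windows. They occurred in 0 of 14 gamma windows and in 1.11% of all 33469 windows of the same length. Of the abundant beta genes, Pcdhb17 had no window, and the window of Pcdhb16l did not hold these letters. The following sites have the motif in capitals and all lie on the + strand of chromosome 18. They belong to the abundant genes Pcdhb3 and Pcdhb19, to the beta genes whose groups did not overlap, and to Pcdhb20. The last was listed at 0 in some libraries.
Pcdhb3 (chr18:29285599-29285638): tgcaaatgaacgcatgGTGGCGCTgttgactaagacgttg
Pcdhb4 (chr18:29292206-29292245): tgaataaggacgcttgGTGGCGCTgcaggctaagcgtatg
Pcdhb9 (chr18:29379243-29379282): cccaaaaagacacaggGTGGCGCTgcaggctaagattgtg
Pcdhb12 (chr18:29413643-29413682): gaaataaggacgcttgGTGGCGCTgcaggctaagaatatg
Pcdhb19 (chr18:29478759-29478798): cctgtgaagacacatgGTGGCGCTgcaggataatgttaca
Pcdhb20 (chr18:29485805-29485844): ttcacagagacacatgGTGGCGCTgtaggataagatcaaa

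A second run of 8 letters, GCTGTTCA, also chosen after the sequences were seen, occurred on either strand in 8 of 14 gamma windows and in 0 of 17 beta windows. It occurred in 1.03% of all windows, and 0 members held both motifs. Where the base before it is C, its first letters overlap the core CGCT. The 5 sites shown here, with this motif in capitals on the + strand of chromosome 18, include Pcdhga7, which was listed at 0 in some libraries.
Pcdhga5 (chr18:29770903-29770942): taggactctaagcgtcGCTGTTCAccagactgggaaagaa
Pcdhga7 (chr18:29794205-29794244): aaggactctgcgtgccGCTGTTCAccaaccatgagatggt
Pcdhga8 (chr18:29805000-29805039): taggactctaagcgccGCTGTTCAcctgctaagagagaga
Pcdhga10 (chr18:29825814-29825853): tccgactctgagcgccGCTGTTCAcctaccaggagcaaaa
Pcdhga12 (chr18:29843862-29843901): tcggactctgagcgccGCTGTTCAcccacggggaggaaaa

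Pcdhga3, the gene that drew attention to the family, held neither run of letters. Its 250 bases before the gene start (chr18:29750133-29750382, + strand, GRCr8) are shown with the 6 matches of CGCT on either strand in capitals.
Pcdhga3: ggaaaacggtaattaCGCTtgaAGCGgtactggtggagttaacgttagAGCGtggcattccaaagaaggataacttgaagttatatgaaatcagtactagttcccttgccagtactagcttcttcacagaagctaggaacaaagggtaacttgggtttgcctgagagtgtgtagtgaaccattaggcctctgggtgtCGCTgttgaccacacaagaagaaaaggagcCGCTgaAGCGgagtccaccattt
The core alone occurred in 27 of 32 member windows and in 60.9% of all windows. The letters are a description of these windows and were not tested as binding sites.

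The libraries held between 27960586 and 38322354 counts on features, and 3 counts, the limit that a count of 0 allows, came to 0.0786 to 0.107 CPM, the counts per library brought to one total by TMM. This limit covers counting error only. The fibroblast genes Col1a1 and Pdgfra were present in every library. Of the neuron markers, Snap25 was at 0 in all libraries, and Rbfox3 reached at most 3, Elavl3 at most 2 and Th at most 4 counts. Others were found in every library, with 202 to 371 counts for Map2, 33 to 65 for Dbh, 10 to 26 for Elavl4 and 4 to 15 for Syt1. The summed level of the 12 neuron markers, most of it from Tubb3 and Uchl1, was 101 to 112 CPM with AngII, 99.3 to 110 CPM with AngII+HNG and 98.5 to 114 CPM with AngII+MOTS-c. Cardiomyocyte markers summed to between 5447 and 7232 CPM over the 12 libraries. In bulk RNA, fewer cells of a type and less RNA per cell cannot be told apart.

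Counts were found for 35 of the 36 genes. Only Pcdhb1 was at 0 in all libraries, and Pcdhac1, the C-type gene of the alpha cluster, had 4 counts in AngII replicate 2, 2 counts in AngII+MOTS-c replicate 4 and 0 in the other 10 libraries. Pcdhb6 had 2 to 11 counts. These 3 genes did not pass the filter on low counts, and 33 genes were tested. Symbols of several known members, among them Pcdhac2 and Pcdhgc4, were not analysed here. The Pcdha4 entry of RefSeq lists the names of other alpha genes as synonyms, so its value may stand for more than 1 alpha gene.

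Levels were compared between genes as FPKM, which divides the count by gene length and library total. Pcdhgc3, the C-type gamma gene, stood far above the rest at 53.8 ± 2.16 FPKM (SD, n = 12 libraries), and its libraries lay between 49.2 and 56.8 FPKM. It took 57.2% of the family's summed FPKM. How reads of the exons that it shares with other gamma genes were assigned is not given, so this share is uncertain. The next gene, Pcdhga2, had 4.75 ± 1.00 FPKM, with libraries between 2.88 and 6.41 FPKM. Pcdhgb8 with 3.33 ± 0.31 FPKM and Pcdhga10 with 3.28 ± 0.39 FPKM followed, and these neighbours did not differ beyond their spread. Pcdhgb7 had 1.89 ± 0.32 FPKM and Pcdhga3 had 1.77 ± 0.64 FPKM. The other C-type gamma gene, Pcdhgc5, had 0.80 ± 0.12 FPKM.

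**Figure D1:**
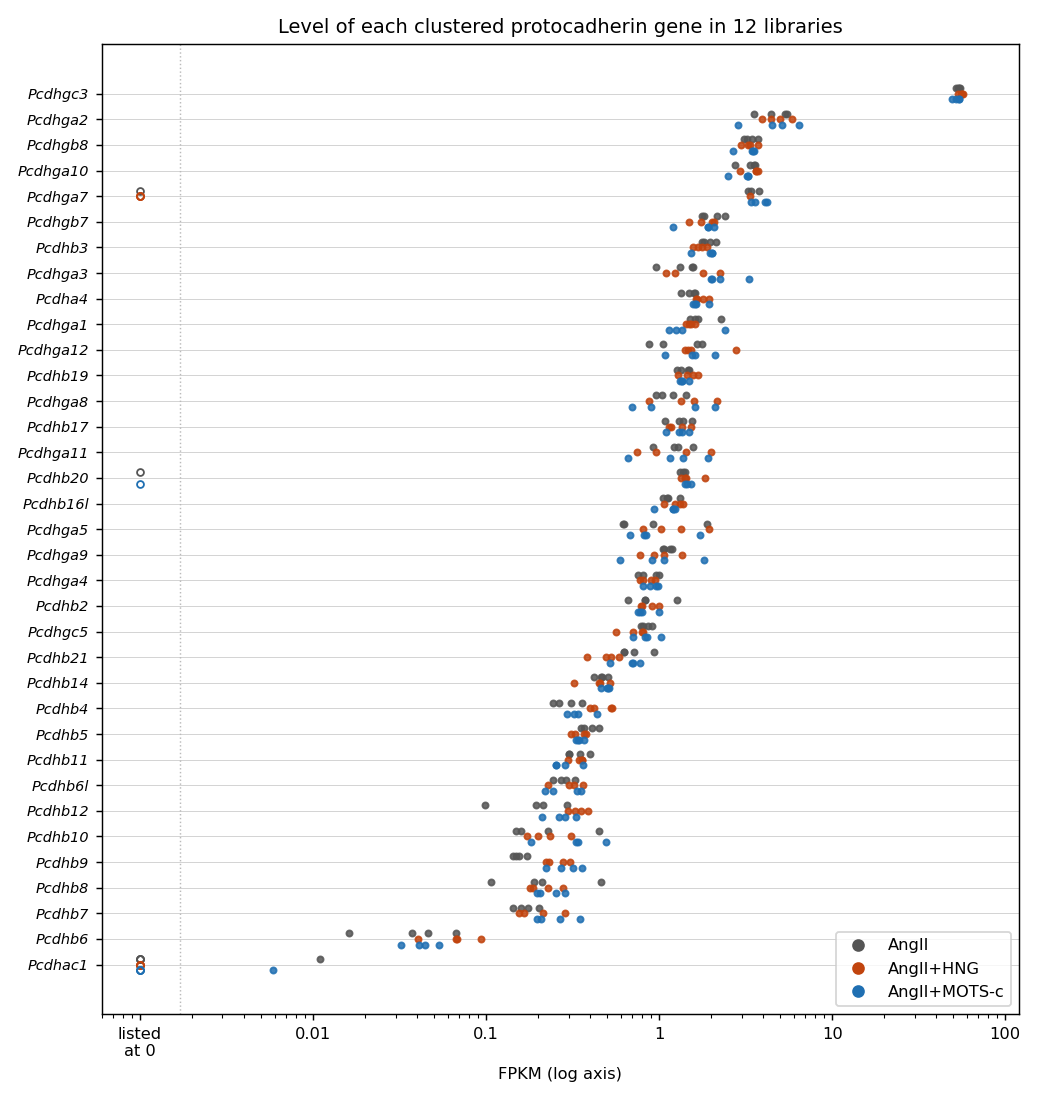
FPKM of the 35 genes with any count in each library, on a log axis, with genes ordered by their mean. Points are libraries coloured by treatment, and open circles mark values listed at 0. Pcdhgc3 stood at 49.2 to 56.8 FPKM in the 12 libraries, above every library of every other gene, and Pcdhga7 and Pcdhb20 had libraries listed at 0 beside libraries at usual levels.

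In the beta cluster, the most abundant genes were Pcdhb3 with 1.85 ± 0.19 FPKM, Pcdhb19 with 1.42 ± 0.12 FPKM and Pcdhb17 with 1.31 ± 0.16 FPKM. Pcdhb16l, a gene named as similar to Pcdhb16, had 1.18 ± 0.13 FPKM. At the lower end of the tested beta genes, Pcdhb7, Pcdhb8 and Pcdhb9 lay at 0.21 to 0.24 FPKM. Pcdha4 had 1.65 ± 0.17 FPKM and supplied 99.9% of the counts of its cluster. By summed counts, the gamma cluster took 86.6%, the beta cluster 11.1% and the alpha cluster 2.23% of the family.

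The order of the levels depended on the unit for some genes. Pcdhb3 was at rank 7 by FPKM and at rank 19 by CPM, because its length, taken from the ratio of counts to FPKM, was 2680 bases. Pcdhgc3, Pcdhga2, Pcdhgb8, Pcdhga10 and Pcdhga7 kept the first 5 ranks in both units. The implied length differed between libraries for some genes, by a factor of 2.74 for Pcdhb10 and 1.45 for Pcdhb21, so their FPKM and CPM need not give the same pattern.

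The gamma A and B genes had a higher median spread between libraries of one treatment than the beta genes. The pooled SD of log2 CPM within treatments had a median of 0.38 over the 13 gamma A and B genes, 0.22 over the 17 tested beta genes and 0.11 over all 14618 features tested. The ranges between the quartiles overlapped, from 0.27 to 0.54 for the gamma A and B genes and from 0.18 to 0.32 for the beta genes. Without the libraries of replicate 3 the medians were 0.29 and 0.22, with ranges of 0.17 to 0.42 and 0.18 to 0.31. Because the beta genes had fewer counts, the variance within treatments was also divided by the variance that counting alone gives, a measure chosen after the values were seen. This ratio had a median of 22.5 for the gamma A and B genes, 1.78 for the beta genes and 3.28 for all features. It was at least 5 for 12 of 13 gamma A and B genes and below 2 for 10 of 17 beta genes, while of all 14618 features 4497 were at 5 or more and 3588 below 2. The ratio grows with the counts, whose median was 84.1 per library for the beta genes, 267.8 for the gamma A and B genes and 717 for all features. The coefficient of variation left after counting variance was removed had a median of 11.1% for the beta genes, 27.1% for the gamma A and B genes and 5.73% for all features.

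The beta genes Pcdhb4 and Pcdhb9 had ratios of 0.95 and 0.80, no more than counting noise. Pcdhb16l with 1.53 and Pcdhb19 with 1.78 were also close to counting noise although they averaged 216 and 226 counts per library. Pcdhb17 reached 5.003, and Pcdhb20 reached 35.0 through its 2 libraries at 0. In the gamma cluster, Pcdhga2 had a ratio of 43.2, Pcdhga5 of 41.4 and Pcdhga3 of 22.5. Pcdhga5 is a case near the upper end, with a coefficient of variation of 47.4% beside a median of 27.7% for the gamma A and B genes. Its libraries had 3.10, 4.62, 9.36 and 3.12 CPM with AngII, 5.08, 3.98, 9.55 and 6.58 CPM with AngII+HNG, and 8.49, 4.02, 3.36 and 4.20 CPM with AngII+MOTS-c. The groups overlapped, and the highest library was replicate 3 with AngII and AngII+HNG and replicate 1 with AngII+MOTS-c.

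In RefSeq, 13 of the 15 gamma genes end within 5 bases of one shared 3′ end, and these 13 genes had ratios from 5.52 to 141. Pcdhga4 and Pcdhgc5, which end elsewhere, had ratios of 1.63 and 1.55. The ratio grows with the counts, and the coefficient of variation did not separate these genes. It was 3.25% for Pcdhgc3, the lowest of all tested members, and up to 58.4% for the 13 genes that share the end, and it was 9.74% for Pcdhga4 and 13.1% for Pcdhgc5. The length implied by counts and FPKM was 4764 to 4983 bases for the 13 genes, 5737 bases for Pcdhga4 and 3312 bases for Pcdhgc5. How reads of shared exons were assigned is not given in the sources used here, and the single values of the 13 genes are uncertain for that reason. The part of this assignment in the spread was not tested.

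**Figure D2:**
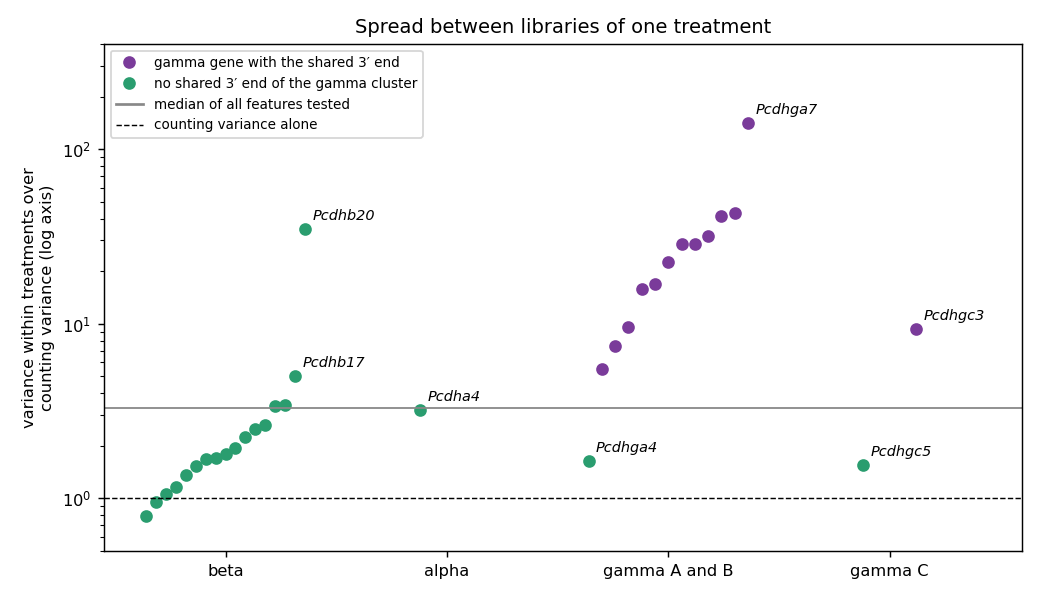
Variance of each tested gene within treatments divided by the variance that counting alone gives, on a log axis, for 33 genes by cluster. The 13 gamma genes with the shared 3′ end lay at 5.52 or above, Pcdhga4 and Pcdhgc5 lay at 1.63 and 1.55, and most beta genes lay below the median of all features at 3.28, a ratio that grows with the counts.

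The sum of the 15 genes was 386 to 400 CPM with AngII, 383 to 401 CPM with AngII+HNG and 382 to 402 CPM with AngII+MOTS-c. The means were 392 ± 6.74, 392 ± 7.31 and 393 ± 8.15 CPM (SD, n = 4 each), and the groups overlapped over nearly their whole ranges. The coefficient of variation of the sum within treatments was 1.89%. Pcdhgc3, with 66.2% of the counts of the cluster and a coefficient of 3.25%, was the largest part of this sum, and the 13 gamma A and B genes summed had 6.56%, or 7.37% without Pcdhga7. The variance of the sum was 0.28 times the sum of the single genes' variances, and 0.29 times without Pcdhga7. For the 13 gamma A and B genes alone it was 0.58, and without Pcdhga7 it was 1.00, the value of genes that vary without a net relation. It was 1.27 for the beta genes, and 1.76 without Pcdhb20. The gamma sum as 1 feature, an alternative added after the data were seen, differed by -0.00091 (SE 0.035) for AngII+HNG against AngII on the log2 scale. It differed by 0.0022 (SE 0.029) for AngII+MOTS-c against AngII and by -0.0035 (SE 0.036) for AngII+HNG against AngII+MOTS-c.

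**Figure D3:**
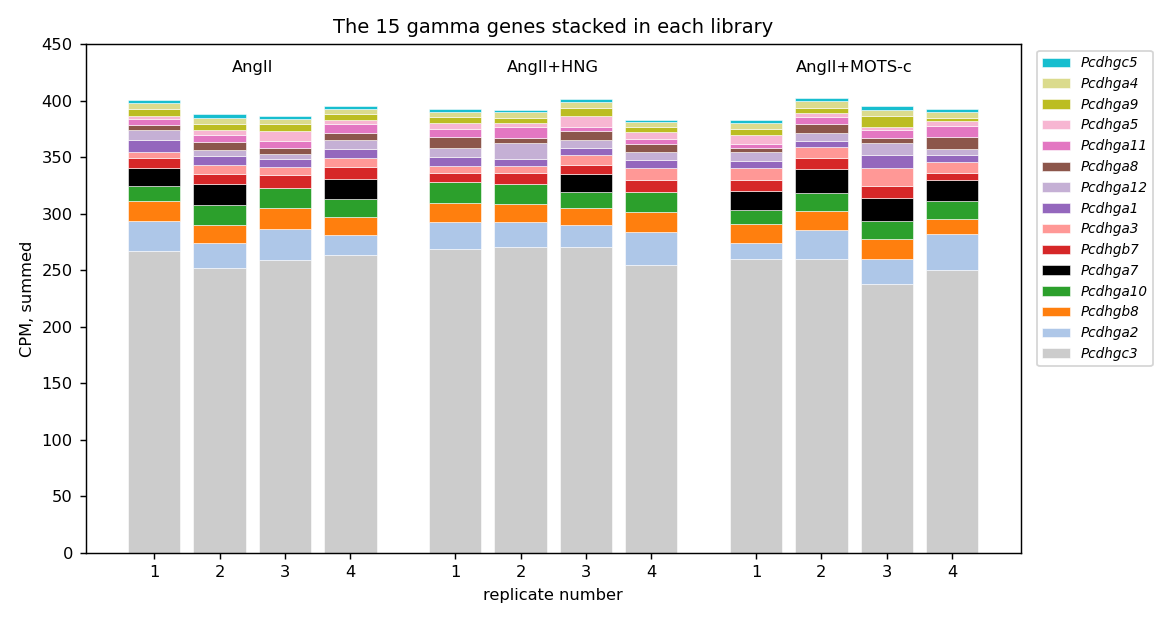
CPM of the 15 gamma genes stacked for each library, with libraries ordered by treatment and replicate. The total stayed between 382 and 402 CPM in all 12 libraries, while single segments such as Pcdhga7 (black) were absent in 4 libraries and present in 8.

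Pcdhga7 was present in some libraries and listed at 0 in others. With AngII it had 621, 667, 0 and 644 counts, with AngII+HNG 0, 0, 546 and 0 counts, and with AngII+MOTS-c 581, 782, 581 and 587 counts. All nonzero values lay between 16.3 and 20.8 CPM, and there were no intermediate values. Among the beta genes, Pcdhb20 behaved alike, with 186, 176, 0 and 177 counts with AngII, 140, 191, 212 and 167 with AngII+HNG, and 187, 0, 147 and 164 with AngII+MOTS-c. The library AngII replicate 3 was at 0 for both genes, whereas the others at 0 were not shared.

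Such values were rare among annotated genes. Features at 0 in some libraries and with at least 50 counts in all others, a rule chosen after the values were seen, numbered 31 in the whole table. Of these, 27 were among the 320 transcripts assembled from the reads and 4 were among the 22530 annotated genes, namely Pcdhga7, Pcdhb20, the histone gene H3c13 and the mitochondrial ribosomal protein gene Mrps28. The sum of the other 12 gamma A and B genes averaged 123 CPM in the 4 libraries with Pcdhga7 at 0, with a range of 120 to 126 CPM. In the 8 libraries with Pcdhga7 it averaged 116 CPM, with a range of 103 to 133 CPM, so the ranges overlapped. Whether the zeros reflect absent transcripts or the assignment of reads was not tested.

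Without a replicate block, Pcdhga7 did not pass the test between treatments when all libraries were kept, although its AngII+HNG libraries lay below all AngII+MOTS-c libraries. The log2 fold change was -2.21 (SE 0.97, adjusted p = 0.237, edgeR) for AngII+HNG against AngII+MOTS-c and -1.67 (SE 1.205, adjusted p = 0.489, edgeR) for AngII+HNG against AngII. These calls depended on the setting. The test against AngII+MOTS-c was also passed under 1 alternative that kept all 8 libraries, a replicate block, which is given with the limits. Without AngII+HNG replicate 3, the adjusted p of edgeR was 1.88e-08 against AngII+MOTS-c and 0.0137 against AngII. Over all alternatives the adjusted p lay between 1.88e-08 and 0.717 against AngII+MOTS-c and between 0.0137 and 0.852 against AngII.

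**Figure D4:**
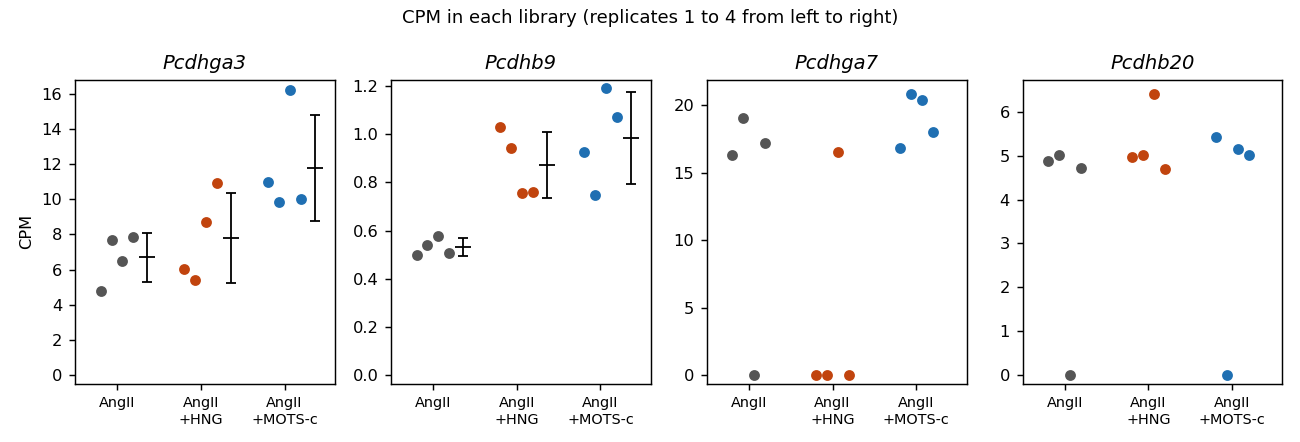
CPM of Pcdhga3, Pcdhb9, Pcdhga7 and Pcdhb20 in each library, with the mean and SD of 4 libraries in black for the first 2 genes. All AngII+MOTS-c libraries of Pcdhga3 and Pcdhb9 lay above all AngII libraries, and Pcdhga7 and Pcdhb20 fell into values at 0 and values of 16.3 to 20.8 and 4.70 to 6.41 CPM.

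The comparison of AngII+HNG with AngII asked which genes HNG changed in fibroblasts exposed to AngII. By edgeR, 0 of 33 clustered protocadherins had an adjusted p below 0.05, while 5.98% of all 14524 features did. At an unadjusted p below 0.05 there were 4 of the 33 genes, beside 20.3% of all features. DESeq2 also called 0 genes, beside 8.32% of all features, with 1 left without an adjusted p. It counted 3 genes at an unadjusted p below 0.05, beside 19.4% of all features. The median log2 fold change was -0.0013 for beta genes, 0.020 for gamma genes and 0.0043 for all features. The estimate was above 0 for 17 genes and below 0 for 16.

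The groups did not overlap for 3 genes of low level in the beta cluster, all higher with AngII+HNG, while 7.02% of all features were higher and 6.56% lower without overlap. Pcdhb9 had exactly 19 counts in each AngII library, 29, 36, 25 and 27 counts with AngII+HNG, and 32, 28, 34 and 35 counts with AngII+MOTS-c. The counts of both peptide groups thus lay above those of AngII. Its log2 fold change with AngII+HNG was 0.71 (SE 0.23, adjusted p = 0.0919, edgeR). Pcdhb4 had 25, 34, 24 and 32 counts with AngII and 32, 54, 35 and 51 counts with AngII+HNG, which were apart only after scaling to CPM. Its log2 fold change was 0.66 (SE 0.21, adjusted p = 0.0904, edgeR), the smallest adjusted p of the family. Pcdhb12 had 24, 11, 23 and 35 counts with AngII and 32, 36, 34 and 44 counts with AngII+HNG, also apart only after scaling, with a log2 fold change of 0.75 (SE 0.28, adjusted p = 0.156, edgeR).

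Pcdhgc3 had 260 ± 6.67 CPM with AngII and 266 ± 7.69 CPM with AngII+HNG (SD, n = 4 each), and its log2 fold change was 0.034 (SE 0.037, adjusted p = 0.686, edgeR). Pcdha4 differed by 0.17 (SE 0.095, adjusted p = 0.367, edgeR) on the log2 scale. The estimates of Pcdhga2, Pcdhgb8 and Pcdhga10 were 0.020, -0.041 and 0.064 on the log2 scale. For Pcdhga3 the estimate was 0.22 (SE 0.21, adjusted p = 0.631, edgeR).

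The comparison of AngII+MOTS-c with AngII asked the same of MOTS-c and shares its AngII libraries with the comparison above. Here 0 of 33 members had an adjusted p below 0.05 by edgeR, beside 0.0069% of all 14488 features, and DESeq2 called 0 members as well, beside 0.0207%. At an unadjusted p below 0.05 both tools counted 3 members, beside 5.05% of all features with edgeR and 4.41% with DESeq2. Nothing is read from this count because the family was chosen on this comparison. Pcdhga3 had 4.78, 7.68, 6.51 and 7.84 CPM with AngII and 11.0, 9.83, 16.2 and 10.01 CPM with AngII+MOTS-c. All AngII+MOTS-c libraries were above all AngII libraries, and the means were 6.70 ± 1.411 and 11.8 ± 3.02 CPM (SD, n = 4 each). The log2 difference was 0.81 (SE 0.17). With AngII+HNG the gene had 6.04, 5.40, 8.73 and 10.9 CPM, values that overlapped both other groups.

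Pcdhb9 was the only other member without overlap, with 0.53 ± 0.036 CPM with AngII and 0.98 ± 0.19 CPM with AngII+MOTS-c (SD, n = 4 each). Its log2 difference was 0.88 (SE 0.23). Groups without overlap occurred in 3.44% of all features of this comparison, with 1.75% higher and 1.7% lower. Pcdhb7 followed with a log2 difference of 0.57 (SE 0.22), and its groups overlapped. The median log2 difference was 0.018 for beta genes, 0.0056 for gamma genes and -0.00076 for all features. Pcdhgc3 had 252 ± 10.5 CPM with AngII+MOTS-c, a log2 difference of -0.046 (SE 0.035). Within the 13 gamma A and B genes the sum was 129 ± 3.54 CPM with AngII, 138 ± 13.9 CPM with AngII+MOTS-c and 124 ± 3.76 CPM with AngII+HNG (SD, n = 4 each). Pcdhga7 was at 0 in 1 AngII library and in most AngII+HNG libraries. Without it the sums were 116 ± 5.73, 119 ± 12.4 and 120 ± 6.30 CPM in the same order, and all include Pcdhga3.

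The direct comparison of AngII+HNG with AngII+MOTS-c asked where the peptides differed. They were given at different doses, so the values are side by side and not at a matched dose. By edgeR, 0 of 33 members had an adjusted p below 0.05, beside 4.41% of all 14448 features. At an unadjusted p below 0.05 there were 2 members, beside 19.3% of all features. DESeq2 called 0 members, beside 7.21% of all features, and counted 1 at an unadjusted p below 0.05, beside 18.7%. Pcdhga7 was the only member whose groups did not overlap, beside 12.5% of all features, with 6.44% higher and 6.07% lower. Pcdhga3 was lower with AngII+HNG by a log2 difference of -0.59 (SE 0.21), given as a description. Pcdhb9 differed by -0.17 (SE 0.23, adjusted p = 0.738, edgeR) and Pcdhgc3 by 0.077 (SE 0.042, adjusted p = 0.335, edgeR).

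**Figure D5:**
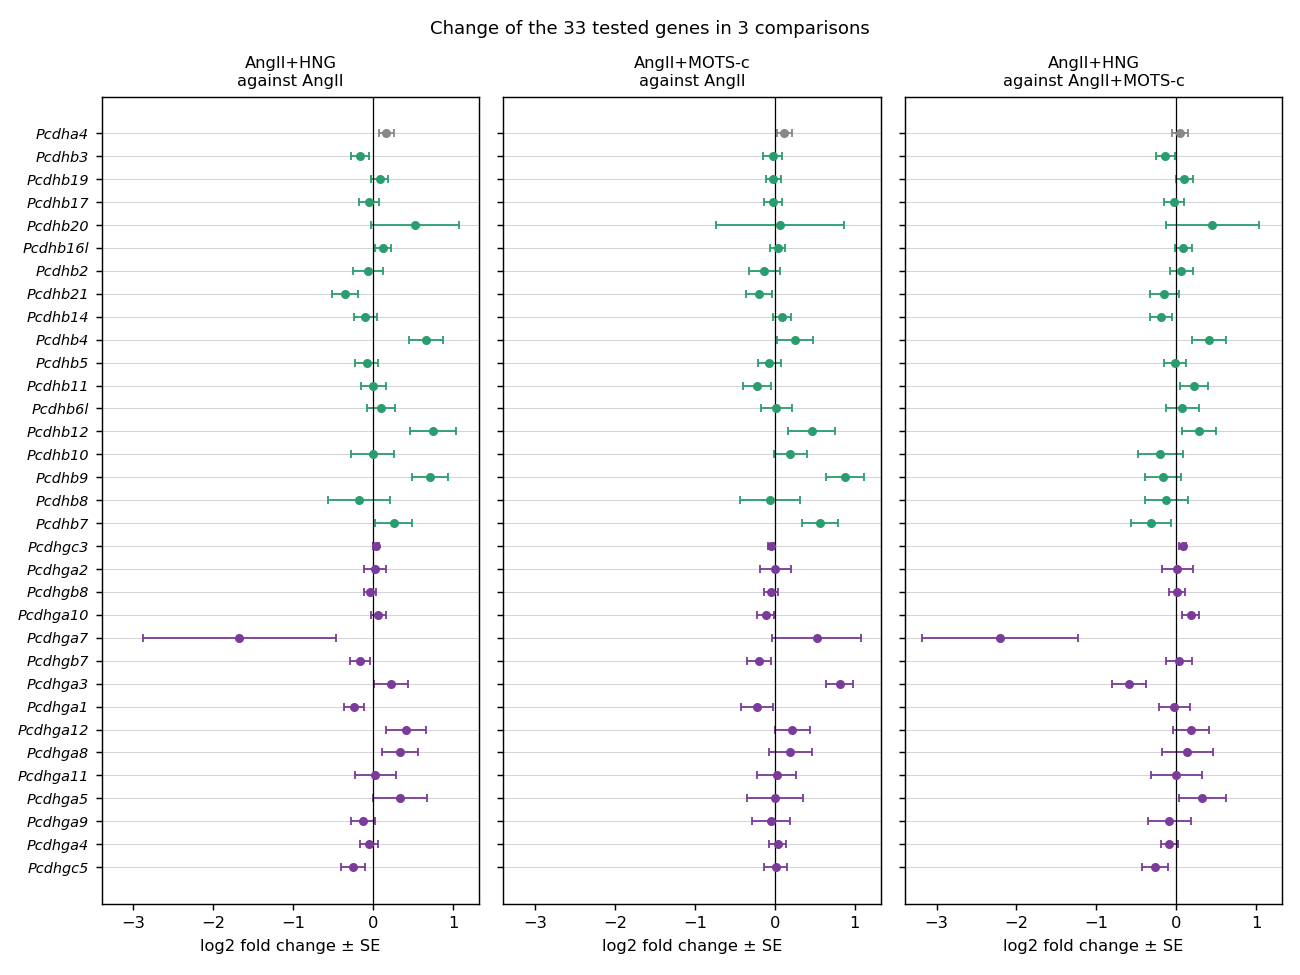
Log2 fold change and SE of the 33 tested genes in 3 comparisons on one scale, with alpha genes in grey, beta genes in green and gamma genes in purple. The widest error bars belong to Pcdhga7 and Pcdhb20, and Pcdhgc3 has the narrowest, with an SE of 0.037 in AngII+HNG against AngII.

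Genes that act with the clustered protocadherins were read from lists chosen with earlier results known. Of 25 tested genes for promoter choice and chromatin, edgeR called 1 and DESeq2 called 2 for AngII+HNG against AngII, where edgeR called 5.98% and DESeq2 8.32% of all features. The shares of the lists that follow for this comparison stand beside the same background. The gene called by edgeR was Tet3, an enzyme that oxidises methylated DNA, which fell by 0.23 on the log2 scale (SE 0.054, adjusted p = 0.0223, edgeR). Ctcf, the insulator protein, had 78.8 ± 2.57 CPM with AngII and 74.8 ± 3.51 CPM with AngII+HNG (SD, n = 4 each), with an adjusted p of 0.389 by edgeR. The cohesin subunit Rad21 (adjusted p = 0.851, edgeR), the silencing protein Smchd1 (adjusted p = 0.694, edgeR) and the DNA methyltransferase Dnmt3b (adjusted p = 0.847, edgeR) did not pass the test. The list's median was -0.034, beside 0.0043 for all features, with 8 estimates above 0 and 17 below. For AngII+MOTS-c against AngII it was 0.042, beside -0.00076 for all features, with 22 of 25 above 0. For AngII+HNG against AngII+MOTS-c it was -0.068, beside 0.0023 for all features, with 23 of 25 below 0. In the latter, 7 had an unadjusted p below 0.05, beside 19.3% of all features. These comparisons share libraries, and the share of all features on each side of 0 was not analysed here. The list summed to 2140 to 2178 CPM with AngII, 1953 to 2181 CPM with AngII+HNG and 2168 to 2234 CPM with AngII+MOTS-c. These ranges overlapped.

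Of 31 tested genes for signalling and cleavage, Psen2, a catalytic subunit of the gamma-secretase that cuts cadherins in the membrane, rose with AngII+HNG by 0.38 (SE 0.060, adjusted p = 0.00312, edgeR). Ptk2, the focal adhesion kinase that clustered protocadherins inhibit, fell by 0.14 (SE 0.038, adjusted p = 0.0434, edgeR) on the log2 scale. Its relative Ptk2b had an estimate of 0.32 (SE 0.089, adjusted p = 0.0528, edgeR), and the protease Adam10, which sheds cadherins, had 0.064 (SE 0.052, adjusted p = 0.546, edgeR). The other 29 genes of the list were not called by edgeR, DESeq2 called 3 of the 31 genes, beside 8.32% of all features, and the list's median was 0.0089.

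Nonclustered protocadherins, which are single genes with promoters of their own, included 2 called genes of 10 tested, with edgeR and with DESeq2, beside 5.98% and 8.32% of all features. Pcdh18 fell by 0.32 (SE 0.043, adjusted p = 0.00124, edgeR) with AngII+HNG, from 110 ± 2.05 to 88.0 ± 4.83 CPM (SD, n = 4 each), and Pcdh7 fell by 0.21 (SE 0.053, adjusted p = 0.0357, edgeR). Of 21 tested cadherins and genes related to Fat and Dachsous, edgeR called 1 and DESeq2 called 2. With edgeR, Cdh3 (P-cadherin) fell by 0.23 (SE 0.048, adjusted p = 0.0128, edgeR). Cdh2 and Cdh11, the main cadherins of fibroblasts, had estimates of -0.019 and 0.0064, with adjusted p-values of 0.851 and 0.954 by edgeR. Their medians were -0.11 for the nonclustered genes and -0.019 for the cadherins. For AngII+MOTS-c against AngII, 0 genes of these 4 lists were called by edgeR or DESeq2, beside only 0.0069% and 0.0207% of all features. Each list but the cadherins, which had 0, had 1 gene at an unadjusted p below 0.05 with edgeR, beside 5.05% of all features.

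Between the peptides, edgeR called 1 of 10 nonclustered protocadherins, 1 of 25 genes for promoter choice and chromatin, 2 of 30 for signalling and cleavage and 1 of 19 cadherins, beside 4.41% of all features. Pcdh18 was lower with AngII+HNG by -0.34 (adjusted p = 0.00246, edgeR), Tet3 by -0.27 (adjusted p = 0.00942, edgeR) and the giant cadherin Fat1 by -0.16 (adjusted p = 0.0277, edgeR). Psen2 was higher by 0.37 (adjusted p = 0.00599, edgeR) and Ptk2b by 0.35 (adjusted p = 0.0245, edgeR). With AngII+HNG against AngII, 4 of 11 macrophage markers and 4 of 8 endothelial markers were called higher, and 5 of 8 smooth muscle and pericyte markers were called lower by edgeR. Of the macrophage markers, 8 had estimates above 0 and 3 below, among them C1qc with -0.43 and Adgre1 with -0.36 (adjusted p = 0.255 and 0.185, edgeR), and Lyz2 rose from a mean of 102 to 172 CPM, most of the rise of the sum. The macrophage markers summed to 248 to 296 CPM with AngII, 336 to 439 CPM with AngII+HNG and 244 to 294 CPM with AngII+MOTS-c. The endothelial markers summed to 75.01 to 84.2, 96.5 to 106 and 79.7 to 84.4 CPM in the same order, and the smooth muscle and pericyte markers to 7284 to 7565, 5790 to 6311 and 6864 to 7501 CPM. Of the 6 tested neuron and 6 tested Schwann cell markers, 0 were called by edgeR or DESeq2 in any comparison, and with edgeR 0 had an unadjusted p below 0.05 for AngII+HNG against AngII. For that comparison, fibroblast markers had 2 of 10 called higher and cardiomyocyte markers 1 of 9. With AngII+MOTS-c against AngII, 0 markers were called by edgeR, beside only 0.0069% of all features. Of the 8 smooth muscle and pericyte markers, 7 had estimates below 0 with a list median of -0.12. An unadjusted p below 0.05 was found for 4 of them with edgeR, beside 5.05% of all features, and DESeq2 called 1, beside 0.0207%. In the other marker lists, 1 Schwann cell and 1 fibroblast marker had an unadjusted p below 0.05 with edgeR, and DESeq2 called 0. The part of these cells in the values of HNG and MOTS-c was not tested.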

How the data were processed

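RNA of 12 libraries was sequenced by the authors as paired-end mRNA libraries on a DNBSEQ platform. The authors deposited whole-number counts per feature without normalization, and FPKM values of the same features. The submitters' processing notes name HISAT2, Picard 1.41 and SAMtools 0.1.18. The counting tool, its use of strand, the genome build and the annotation are not given in the sources used here. Groups and replicate numbers were taken from the sample titles, and doses and times from the study's methods.

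Counts were scaled by TMM, filtered by filterByExpr and tested with the quasi-likelihood test of edgeR 4.0.16 in R 4.3.3, with a fit per comparison on 8 libraries and two-sided p-values adjusted over all features tested by Benjamini-Hochberg at 0.05. Log2 CPM used a prior count of 2. Alternatives were DESeq2 1.42.0, RLE factors, other filters, 1 fit of 12 libraries, a replicate block, replicates 2 and 3 summed, limma 3.58.1 on log2(FPKM + 1) or log2(FPKM + 0.1), and leaving out each library. The fits were tested on simulated counts.

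Members and lists were chosen with earlier results of these data known. The genes named were Pcdhga3, the C-type genes, the 3 most abundant of each subcluster, members without overlap between groups, and those with the largest and smallest spread. Ctcf, Rad21, Smchd1, Dnmt3b, Ptk2, Ptk2b, Adam10, Cdh2, Cdh11 and up to 5 called genes of each list were added. Pcdhb7, Pcdhb8, Pcdhb10, Pcdhb21, Pcdhga4, Fat1 and the markers were named after their values were seen. RefSeq (GRCr8) gave promoter sequences and gene ends, and 35 of 36 symbols matched.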

Additional observations from a re-analysis of the deposited data

Results flagged for a closer look

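In each treatment, the lowest or highest of 4 libraries was compared with the others by Dixon's ratio of gap to range at its 95% critical value. Of 99 groups examined, 13 passed, and chance gives about 1 in 20. AngII+MOTS-c replicate 1 was low for Pcdhb14 (3.74 CPM, others from 4.10), Pcdhb3 (4.11 CPM, others from 5.29) and Pcdhga10 (12.3 CPM, others from 15.98), and high for Pcdhga5 (8.49 CPM, others up to 4.20). AngII+MOTS-c replicate 4 was high for Pcdha4 (11.9 CPM, others up to 9.91) and low for Pcdhgb8 (13.2 CPM, others from 16.9). AngII+HNG replicate 3 was low for Pcdhga10 (14.3 CPM, others from 17.7) and high for Pcdhga7 (16.5 CPM, with the others listed at 0). AngII+HNG replicate 2 was high for Pcdhga12 (13.8 CPM, others up to 7.54), and AngII+HNG replicate 4 was low for Pcdhgc3 (254.7 CPM, others from 268.4). AngII replicate 3 was at 0 CPM for Pcdhga7 and for Pcdhb20, and AngII+MOTS-c replicate 2 was at 0 CPM for Pcdhb20.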

How the results depend on the processing

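Over 17 alternatives per comparison, the number of clustered protocadherins called stayed at 0, except in 3 fits with AngII+HNG. Leaving out single libraries gave 0 to 1 called members for AngII+HNG against AngII and for AngII+HNG against AngII+MOTS-c, the 1 being Pcdhga7 without AngII+HNG replicate 3. With a replicate block, 2 members were called for AngII+HNG against AngII+MOTS-c, Pcdhga7 (adjusted p = 0.0326, edgeR, with all 8 libraries kept) and Pcdhga3, whose value there is a description because its AngII+MOTS-c libraries served to choose the family, and 0 in the other comparisons. Deviations of libraries with the same number correlated at -0.028 to 0.12, 0.020 to 0.13 and -0.0096 to 0.25, with 1, 1 and 3 of 4 pairs over 0.1 and 2, 6 and 6 of 8 libraries closest to their own number. The rule asked for every pair over 0.1, so the numbers were not taken to pair the libraries, and 6 of 8 is a hint from the data that they may. The block changed the calls over all features from 869, 1 and 637 to 1111, 2 and 1054, and summing replicates 2 and 3 changed them to 577, 0 and 430. Without a filter, Pcdhac1 joined Pcdha4 and the alpha median became -1.49 for AngII+HNG against AngII, -0.32 for AngII+MOTS-c against AngII and -1.15 for AngII+HNG against AngII+MOTS-c. Beta and gamma medians stayed between -0.10 and 0.11 and had the opposite sign in 4 to 13 of 17 alternatives. The log2 difference of Pcdhga3 with MOTS-c stayed between 0.52 and 0.89. That of Pcdhb9 was 0.16 and 0.62 with limma on log2(FPKM + 1) and log2(FPKM + 0.1), where the pseudocount is large beside its level.

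Uncalled changes near 0 reversed without single libraries. For AngII+HNG against AngII, the ranges over libraries left out were -0.14 to 0.034 for Pcdhb17, -0.020 to 0.14 for Pcdhga10, -0.096 to 0.10 for Pcdhga2 and -0.099 to 0.0099 for Pcdhgb8. For AngII+HNG against AngII+MOTS-c they were -0.023 to 0.12 for Pcdha4, -0.12 to 0.042 for Pcdhb17 (and 0.023 with replicates 2 and 3 summed), -0.17 to 0.20 for Pcdhga2, -0.11 to 0.12 for Pcdhgb7 and -0.074 to 0.059 for Pcdhgb8. Pcdhga7 and Pcdhb20 were not tested with at least 10 counts in every library. The median SD of the members lay between 0.22 and 0.29 over the replicate block and single numbers left out. Of the tested genes that averaged under 50 counts, Pcdhb4 and Pcdhb9 varied no more than counting noise, and Pcdhb12 had a ratio of 1.36. Pcdhb7, Pcdhb8 and Pcdhb10, also under 50 counts on average, had ratios of 2.65, 3.44 and 2.49.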
